A study of Mus musculus with 3 samples.

Results

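Proliferating cells were rare in the stromal fraction of resting subcutaneous fat: 56 of 34577 kept cells carried at least 2 of the 5 genes Mki67, Top2a, Birc5, Cdk1 and Ube2c, each with at least 1 unique molecular identifier (UMI, the tag that counts 1 captured RNA molecule). These cells are called cycling cells here. They were compared with the 33980 kept cells that had no UMI of any of the 5 genes. The cells came from the CD31- CD45- stromal vascular fraction (SVF) of subcutaneous inguinal fat, which is the pellet left after collagenase digestion with endothelial cells and leukocytes sorted away. The donors were 3 untreated wild-type (WT) male C57BL/6J mice aged 8 weeks, and each mouse gave 1 library, so the only comparisons are between cells of the same mice. Mouse 1 gave 13698 barcodes (95899433 UMIs), mouse 2 gave 6872 (79801002) and mouse 3 gave 16220 (100846072), of which barcodes with more than 500 detected genes and under 5% mitochondrial UMIs were kept. Any pair of libraries shared between 37 and 59 kept barcodes, none of them that of a cycling cell.

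A dividing cell passes from G1 through S phase, in which DNA is copied, into G2 and mitosis (M). E2F factors switch on the replication genes at the start of S phase, and the MuvB, B-MYB and FOXM1 factors switch on the mitotic genes later, so that each group of transcripts is high in part of the cycle only. In adult fat most stromal cells are thought to rest, and new adipocytes come from progenitors (adipocyte stem cells, ASC, marked by Dpp4 and Pi16) by way of committed preadipocytes (PreA, marked by Icam1 and Fabp4).

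The 5 genes that chose the cells belong mainly to the G2/M group. Mki67 encodes a protein that coats mitotic chromosomes and Top2a the topoisomerase that untangles sister DNA. Birc5 encodes survivin of the chromosomal passenger complex, Cdk1 the kinase that drives mitosis, and Ube2c the ubiquitin-conjugating enzyme of the anaphase-promoting complex. They lie at 5 separate places in the genome (build GRCm38, GENCODE annotation): Mki67 (ENSMUSG00000031004) at chr7:135689784-135716361, Top2a (ENSMUSG00000020914) at chr11:98992943-99024189, Birc5 (ENSMUSG00000017716) at chr11:117849251-117855743, Cdk1 (ENSMUSG00000019942) at chr10:69335146-69352938 and Ube2c (ENSMUSG00000001403) at chr2:164769898-164778822.

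Their promoters are shown because mitotic genes are known for a shared pair of elements, the CCAAT box and the cell cycle homology region (CHR), and because these genes were detected together in single cells. Each line gives the 250 bases before the RefSeq start site on the gene's own strand, 5′ to 3′, with every CCAAT or ATTGG (the CCAAT box on either strand) and every TTTGAA or TTCAAA (the CHR on either strand) in capitals. In Ube2c a CCAAT and an ATTGG overlap and are both counted.
Mki67: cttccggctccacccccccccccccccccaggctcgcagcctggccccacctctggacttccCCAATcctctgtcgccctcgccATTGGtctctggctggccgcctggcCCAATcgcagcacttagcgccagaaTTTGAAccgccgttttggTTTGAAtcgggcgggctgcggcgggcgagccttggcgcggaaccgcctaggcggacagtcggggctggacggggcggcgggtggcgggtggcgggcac
Top2a: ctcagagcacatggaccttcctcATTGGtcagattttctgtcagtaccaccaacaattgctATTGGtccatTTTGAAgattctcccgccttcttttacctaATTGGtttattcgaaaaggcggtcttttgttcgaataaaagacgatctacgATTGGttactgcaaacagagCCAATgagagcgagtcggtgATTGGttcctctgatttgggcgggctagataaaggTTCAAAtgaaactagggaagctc
Birc5: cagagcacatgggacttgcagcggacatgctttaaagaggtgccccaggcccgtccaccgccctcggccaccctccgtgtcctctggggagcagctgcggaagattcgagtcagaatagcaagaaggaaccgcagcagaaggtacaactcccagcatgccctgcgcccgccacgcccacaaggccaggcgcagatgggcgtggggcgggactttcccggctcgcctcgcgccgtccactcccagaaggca
Cdk1: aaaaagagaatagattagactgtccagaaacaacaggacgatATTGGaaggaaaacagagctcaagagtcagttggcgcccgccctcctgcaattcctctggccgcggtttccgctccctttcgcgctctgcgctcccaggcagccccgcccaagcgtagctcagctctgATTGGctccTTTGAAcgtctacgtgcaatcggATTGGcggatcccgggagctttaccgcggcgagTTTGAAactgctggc
Ube2c: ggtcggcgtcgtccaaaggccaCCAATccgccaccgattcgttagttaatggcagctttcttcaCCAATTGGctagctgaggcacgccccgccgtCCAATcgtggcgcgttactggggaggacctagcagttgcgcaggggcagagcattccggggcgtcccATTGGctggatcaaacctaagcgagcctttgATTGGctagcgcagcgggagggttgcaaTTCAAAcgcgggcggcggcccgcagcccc

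These windows lie at chr7:135716380-135716629 (minus strand), chr11:99024190-99024439 (minus), chr11:117848987-117849236 (plus), chr10:69352913-69353162 (minus) and chr2:164769679-164769928 (plus) of GRCm38.p6. Both elements were present in 4 of the 5 windows, and in the Birc5 window neither was found in these letters. Of all 32851 RefSeq promoter windows of this length, 33.8% held the CCAAT letters, 16.0% the CHR letters and 5.55% both. Among the 47 windows of the other G2/M genes used below, 74.5% held the CCAAT letters, 36.2% the CHR letters and 29.8% both. Among the 34 windows of the S phase genes, 67.6% held the CCAAT letters, 17.6% the CHR letters and 11.8% both. A match of letters is no measurement of binding.

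The share of cycling cells was 0.116% in mouse 1 (15 of 12984, exact 95% interval 0.0647 to 0.190), 0.468% in mouse 2 (30 of 6414, 0.316 to 0.667) and 0.0725% in mouse 3 (11 of 15179, 0.0362 to 0.130). The intervals cover counting error only. Mouse 2 thus gave 30 of the 56 cycling cells, and its interval did not overlap those of the other two. Mouse 2 was also the most deeply measured, with a median of 12192.5 UMIs per kept cell against 7392.5 and 6667. When each cell was thinned to 3000 UMIs and shallower cells were left out, the shares were 0.0936%, 0.409% and 0.0677%, in the same order.

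All 5 genes were detected in 32 of the 56 cells, 4 in 8, 3 in 7 and 2 in 9. Top2a stood at 1314, 483 and 1580 CPM (UMIs per 1000000 UMIs of the cycling cells of that mouse) in mice 1, 2 and 3, Mki67 at 954, 349 and 1300, Ube2c at 616, 554 and 560, Birc5 at 262, 352 and 451, and Cdk1 at 291, 295 and 327. The lowest Top2a and Mki67 levels were those of mouse 2, whereas Cdk1 and Ube2c differed little between mice. The comparison cells have none of these UMIs by construction, so these levels carry no test. The cycling cells held 0.405% of all kept UMIs. By contrast, 75 of 14507 genes with at least 50 UMIs had over 50% of their UMIs in these 56 cells, among them Hmmr (98.4%), a spindle-assembly factor, Bub1 (96.2%), a kinase of the mitotic checkpoint, Pbk (94.7%), a mitotic kinase, Cenpf (86.7%), a kinetochore protein, and Pclaf (80.7%), a partner of the replication clamp. These 5 were picked from that list after their values were seen. The list also holds the 5 rule genes, because the cells were chosen by them. It holds all 5 erythroid markers as well, among them Hbb-bs (70.6%) and Hbb-bt (75.0%), with UMIs in 5 and 3 of the 56 cells. Of these cells, 2 were led by erythroid markers, as described below.

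Other cell cycle genes, which the rule did not use, describe these cells further. They vary with the rule genes, so their levels are no test of the label. S phase genes (43 genes) reached a median of 40.3, 22.8 and 37.9 UMIs per 10000 UMIs of the cell in cycling cells of mice 1, 2 and 3, against 3.99, 3.45 and 3.73 in cells with none of the 5 genes. G2/M genes (49 genes, with the 5 rule genes left out) reached 98.1, 93.9 and 98.6 against 9.05, 8.19 and 8.53. At the threshold, the 541 kept cells with just 1 of the 5 genes stayed at medians of 4.16, 3.51 and 4.03 for S phase and 9.42, 7.50 and 8.30 for G2/M, close to the comparison cells. The cells with exactly 2 of the genes (3 in each mouse) had medians of 41.9, 27.2 and 6.13 for S phase and 22.9, 17.8 and 12.3 for G2/M. The 3 such cells of mouse 3 were therefore the nearest to the comparison cells.

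**Figure D1:**
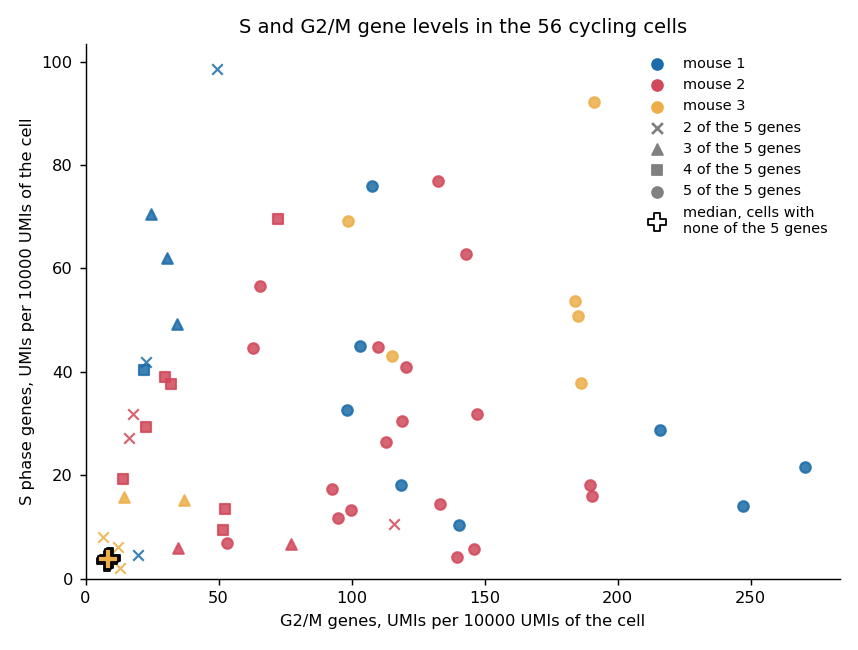
S phase against G2/M gene levels in each of the 56 cycling cells, both as UMIs per 10000 UMIs of the cell, coloured by mouse, with symbols for the number of the 5 rule genes detected. The large crosses mark the medians of cells with none of the 5 genes, at 3.99, 3.45 and 3.73 for S phase, and most cycling cells lie well above or to the right of them.

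S phase UMIs exceeded G2/M UMIs in 14 of the 56 cells. The comparison cells also held more G2/M than S phase UMIs (medians of 9.05 against 3.99 in mouse 1), and the cells were chosen by genes that belong mainly to G2/M, so nothing is read from this number. At least 20 G2/M UMIs per 10000 were found in 48 cells, at least 20 S phase UMIs in 32, both in 30 and neither in 6. In the comparison cells, at least 20 S phase UMIs per 10000 were found in 33 of 12784, 7 of 6244 and 32 of 14952 cells, and at least 20 G2/M UMIs in 372, 109 and 380 of them. The comparison cells past the G2/M level thus outnumbered the 48 cycling cells past it in every mouse. The highest comparison levels were 53.2, 45.1 and 49.3 per 10000, below the cycling medians of 98.1, 93.9 and 98.6. Jpt1 led the G2/M list in the comparison cells, at 271, 285 and 288 CPM of 961, 870 and 908 CPM. Whether the comparison cells past the G2/M level were dividing was not tested. These cells carried no UMI of the 5 rule genes.

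Of the 56 cells, 53 carried more UMIs of pan-fibroblast markers (Pdgfra, Col1a1, Col1a2, Col3a1, Dcn, Lum and others) than of any other cell type. By mouse, 0 of 15, 2 of 30 and 1 of 11 cycling cells were led by another cell type. In the comparison cells 44 of 12784, 52 of 6244 and 56 of 14952 were, a smaller share in mice 2 and 3. Erythroid UMIs exceeded pan-fibroblast UMIs in only 1, 1 and 2 of all kept cells. The 3 cycling cells led by another cell type did not match the label. A cell of mouse 2 had 1859 erythroid UMIs (globins and Alas2) per 10000 against 3.71 pan-fibroblast UMIs, and a cell of mouse 3 had 671 against 4.97. Another cell of mouse 2 had 68.5 endothelial UMIs per 10000 against 18.02 pan-fibroblast UMIs, and passed the preadipocyte threshold. Leukocyte markers were near 0 in the cycling cells, with 0, 7 and 1 UMIs in mice 1, 2 and 3 over 11 genes, and Ptprc, which encodes CD45, was not the most abundant of them in mice 2 and 3 (Cd68 was, at 7.47 and 7.78 CPM). Endothelial markers summed to 105, 269 and 54.5 CPM against 127, 104 and 132 in the comparison cells, with Pecam1 (CD31) leading at 70.9 CPM in mouse 2, and 6, 0 and 7 of the 8 genes were at 0. The single gene Tek was at 98.9 and 54.5 CPM in the cycling cells of mice 1 and 3. In the comparison cells of mice 1 and 2 it was at 113 and 89.9 CPM, so most of these 4 sums is 1 gene. Erythroid markers summed to 0, 8119 and 9465 CPM against 15.9, 4.45 and 15.5 CPM, with Hbb-bs the most abundant. Of the markers tested as described below, 4 of 4 erythroid, 5 of 6 endothelial and 3 of 8 mural ones were higher in cycling cells, where 6.37% of all genes were, and without the 3 cells 0, 0 and 2 were. Mural cell markers summed to 75.6, 173 and 156 CPM against 53.6, 44.4 and 64.6, led by Cspg4, Rgs5 and Abcc9, and 4, 1 and 2 of the 8 genes were at 0. The cell led by endothelial markers held 82 of the 139 mural UMIs of mouse 2. In mouse 3 a single cell held 14 of the 20 mural UMIs and all 6 UMIs of muscle progenitor markers. Those 6 UMIs are all from Des, which belongs to both lists, so they are counted among the 14 as well. Markers of Schwann cells summed to 17.4, 23.6 and 23.4 CPM against 32.6, 31.4 and 27.1, and those of mesothelial and epithelial cells to 23.3, 6.22 and 0 CPM against 12.9, 14.5 and 47.2. Mature adipocyte markers summed to 0, 8.71 and 0 CPM, and muscle progenitor markers to 5.82, 14.9 and 46.7 CPM, all from Des. Pan-fibroblast markers summed to 36263, 34528 and 30287 CPM in cycling cells against 42444, 52449 and 43685 CPM in comparison cells, and all 10 were detected in every mouse.

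Cycling cells held more UMIs than comparison cells. Their median UMI number was 10490 in mouse 1, 23578.5 in mouse 2 and 11815 in mouse 3, against 7386, 12149 and 6659 in comparison cells, ratios of 1.42, 1.94 and 1.77. The ratio was above 1 in 3 of 3 mice. Above the 95th percentile of UMIs of their own mouse lay 31 of the 56 cells, and 49 lay above the median. The largest held 67319 UMIs, more than the 43610 of the largest comparison cell of mouse 2. A cell with more UMIs has a greater chance to show 2 of the 5 genes, and a droplet with 2 cells also holds more UMIs. The part of depth and of doublets in this ratio was not tested. When every cell was thinned to 3000 UMIs and shallower cells were left out, 45 of the 31170 cells left met the rule.

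Progenitors and preadipocytes both had cycling members. A cell was placed in the progenitor class when Dpp4 and Pi16 summed to at least 3 UMIs, in the preadipocyte class when Icam1 and Fabp4 summed to at least 4 UMIs, and in both when both held. Of the 56 cycling cells, 42 passed the progenitor threshold (75.0%, against 66.5% of all kept cells) and 17 the preadipocyte threshold (30.4% against 20.4%). Both thresholds were passed by 9 (16.1% against 4.66%) and neither by 6 (10.7% against 17.7%). The thresholds are UMI numbers and cycling cells held more UMIs, and not all of these differences held at other depths. With cells thinned to 3000 UMIs, 51.1% of cycling cells were progenitors against 62.8% of all cells, and 31.1% against 26.8% passed neither threshold. Without cells above the 95th percentile of UMIs, 16.0% were preadipocytes against 19.4%, and 4.00% against 3.34% passed both.

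Among progenitors 0.141% cycled in mouse 1 (12 of 8504), 0.616% in mouse 2 (23 of 3735) and 0.0651% in mouse 3 (7 of 10757). Among preadipocytes 0.0727% cycled in mouse 1 (2 of 2752), 0.635% in mouse 2 (11 of 1733) and 0.156% in mouse 3 (4 of 2570). The rate was lower in preadipocytes in mouse 1, nearly equal in mouse 2 and higher in mouse 3, with log2 ratios of -0.96, 0.04 and 1.26. The mean log2 ratio was 0.11 ± 1.11 (SD, n = 3 mice; exact two-sided sign-flip permutation p = 0.75, where 0.25 is the smallest p that 3 mice allow). With 3 mice the test could not reach 0.05 whatever the rates, so its p says nothing on whether the classes differed. The mean turned negative, at -0.49, when cells in both classes were left out, and also at -0.49 without cells above the 95th percentile of UMIs. It was -0.46 without mouse 3, and rose to 0.41 with a limit of 10% mitochondrial UMIs, to 0.56 with class thresholds of 5 and 6 UMIs and to 0.90 at 3000 UMIs per cell.

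**Figure D2:**
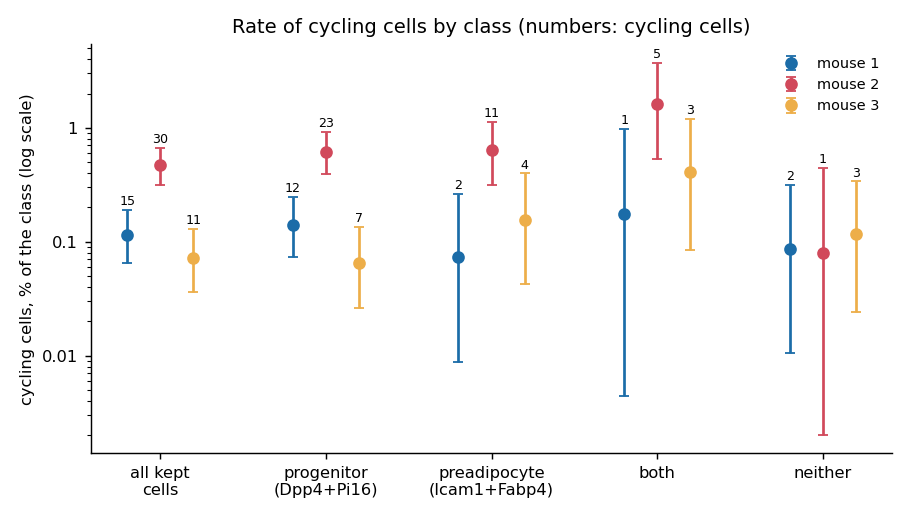
Cycling cells as a percentage of all kept cells and of each class, on a log scale, with 1 point per mouse, exact 95% intervals for counting error and the number of cycling cells above each point. Mouse 2 is highest in all kept cells (0.468%) and in progenitors (0.616%) and preadipocytes (0.635%), while the order of progenitors and preadipocytes differs between mice.

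The UMIs of the cycling cells and of the comparison cells were summed within each mouse (171940, 803389 and 128473 UMIs for the cycling cells), and the sums were compared with edgeR. Of 13659 genes tested, 1823 (13.3%) passed an adjusted p of 0.05, with 870 higher (6.37%) and 953 lower (6.98%) in cycling cells. The median log2 fold change of all genes tested was -0.21, and with scaling by total UMIs alone it was 0.10, so that a change has to be read against that median and not against 0. With total UMIs alone 1321 genes were higher and 431 lower, and with the size factors of the RLE method 1005 and 741. Of the 1823 genes, 184 belonged to the cell cycle lists, and 183 of these were higher. The cell cycle genes follow from the rule and are given below as values without a test. The CPM of the 3 cycling sums lay wholly above those of the 3 comparison sums for 14.4% of all genes tested, and wholly below for 16.4%.

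Replication genes are used first in the cycle. In the list for origin licensing and firing, 17 of 17 genes had cycling levels wholly above the comparison levels, with a median log2 fold change of 3.85. The helicase subunits Mcm4, Mcm7 and Mcm6, which open DNA at origins, had the highest levels as a mean over mice, although Mcm3 was the highest in mouse 1, at 122 CPM. Mcm7 was at 111, 83.4 and 132 CPM in mice 1, 2 and 3 against 5.20, 6.55 and 5.58 CPM. Mcm4 was at 116, 67.2 and 148 CPM against 16.1, 10.3 and 14.7 CPM. Among genes for nucleotide supply and the replication fork, 20 of 20 did not overlap, with a median of 3.33. Pcna, the sliding clamp of the polymerases, was at 273, 260 and 319 CPM against 45.9, 55.5 and 49.9 CPM. Rrm1, a subunit of ribonucleotide reductase, was at 198, 168 and 304 CPM against 21.04, 16.3 and 21.04 CPM, and Dut, which keeps uracil out of DNA, at 122, 147 and 210 CPM against 20.2, 23.7 and 16.6 CPM. In the whole S phase list 41 of 43 genes did not overlap, and Atad2 and Slbp, the latter a binder of histone mRNA, were next to Pcna in abundance, at 389.7, 109.5 and 327 CPM and 256, 190 and 296 CPM.

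Chromatin genes were abundant. H2afz, which encodes the variant histone H2A.Z, was at 1530, 2211 and 1868 CPM against 162, 190 and 160 CPM, and was detected in 55 of the 56 cells. Hmgb2, a chromatin protein, was at 733, 883 and 1611 CPM against 44.9, 42.2 and 40.7 CPM, and its relative Hmgb1 at 1059, 1246 and 1339 CPM against 300.0, 272 and 260 CPM. All 15 genes of the list lay above the comparison levels, with a median log2 fold change of 3.09. Genes of this kind have near-identical copies elsewhere in the genome, and reads shared with them could make the counts less certain, which was not examined.

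Mitotic genes were high too. The cells were chosen by genes that belong mainly to G2/M, so nothing is read from the rank of these lists. The medians were 7.85 on the log2 scale for 18 kinetochore and centromere genes, 8.07 for 19 genes of spindle motors and microtubule factors, 8.13 for 14 genes of mitotic kinases and the passenger complex, and 7.27 for 11 genes of cytokinesis, with no overlap for 18, 19, 14 and 9 of them. Cenpf was at 774, 259 and 444 CPM against 0.0966, 0.359 and 0.154 CPM. Cenpa, the centromeric histone, was at 221, 315 and 156 CPM against 0.870, 1.303 and 0.995 CPM, whereas its chaperone Hjurp was at 401, 138 and 272 CPM against a background of 42.1, 32.9 and 37.8 CPM. Prc1, which bundles midzone microtubules, was at 657, 312 and 592 CPM against 0.633, 0.478 and 0.492 CPM, and Tpx2, an activator of Aurora A, at 489, 241 and 428 CPM against 0.494, 0.385 and 0.461 CPM. Nusap1, a spindle protein, was at 430, 139 and 296 CPM, Cdca8, a passenger subunit, at 157, 152 and 304 CPM, and Incenp, the scaffold of the same complex, at 209, 82.2 and 163 CPM. Pbk was at 204, 167 and 226 CPM against 0.0537, 0.0399 and 0.0308 CPM. In cytokinesis Anln, an actin-binding scaffold, was at 425, 151 and 272 CPM, while Rhoa, which resting cells use too, was at 616, 553 and 389 CPM against 468, 484 and 445 CPM. The overlap of Rhoa shows that not every gene of these lists separated the cells.

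**Figure D3:**
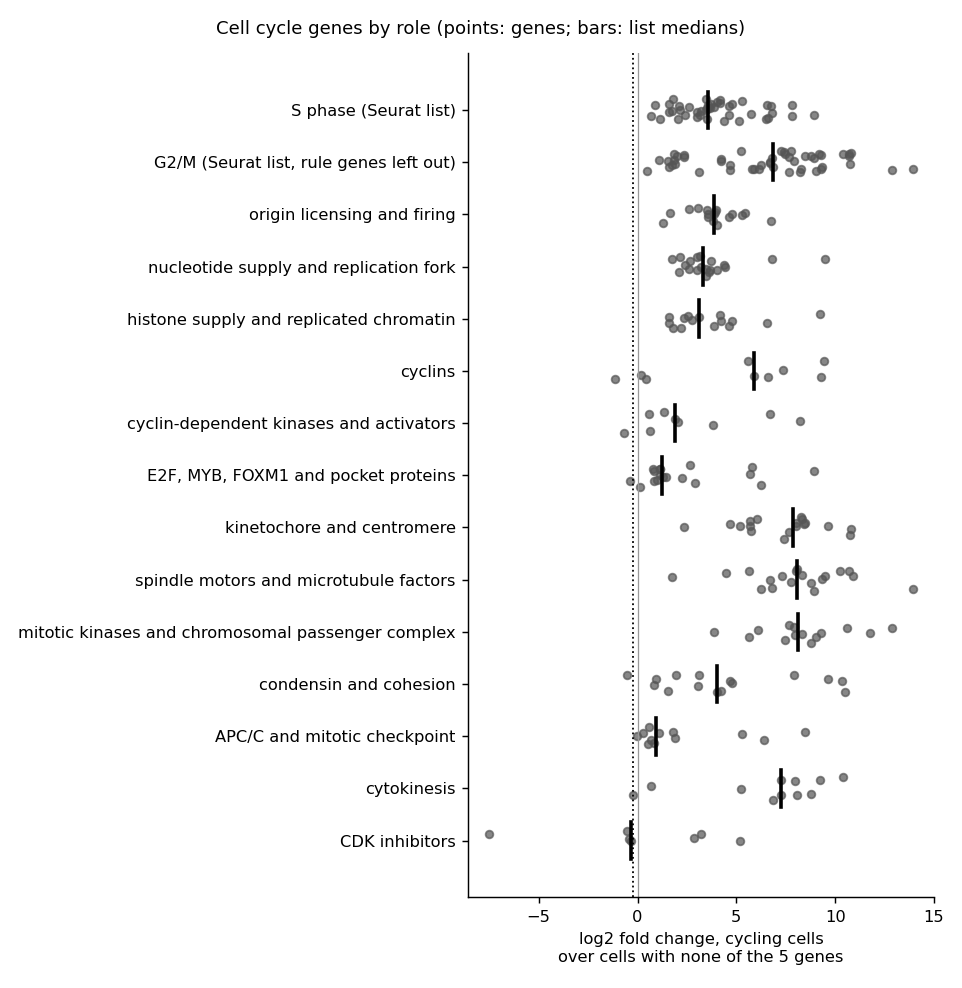
Log2 fold change of each tested cell cycle gene, cycling cells over cells with none of the 5 genes, by role, with list medians as bars and the median of all tested genes (-0.21) as a dotted line. Kinetochore, spindle, mitotic kinase and cytokinesis genes have medians between 7.27 and 8.13, replication genes lie lower, and the CDK inhibitors are split. The CDK inhibitor at the far left is Cdkn2b, which had no UMI in the cycling cells, so that its fitted value is no measure of size.

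The condensin and cohesion list had a median of 4.00, with Smc4 at 390, 342 and 506 CPM against 20.9, 15.3 and 15.4 CPM and Smc2 at 459, 268 and 506 CPM against 13.1, 8.91 and 11.6 CPM. Both are the motor subunits of condensin. Smc1a of cohesin, which resting cells need as well, was at 297, 164 and 342 CPM against 151, 72.1 and 128 CPM. For the anaphase-promoting complex and checkpoint list the median was 0.95. Ube2s, which extends its ubiquitin chains, was at 733, 814 and 856 CPM against 185, 188 and 178 CPM, while the core subunits Anapc5 and Anapc11 were at 238, 193 and 265 CPM and 186, 177 and 202 CPM against 118, 105 and 117 CPM and 79.1, 89.4 and 77.9 CPM. The difference was smaller for both core subunits than for Ube2s.

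Of 9 cyclins, 7 had cycling levels wholly above the comparison levels and 1 wholly below. Ccnb2, Ccna2 and Ccnb1, the partners of Cdk1 and Cdk2 in G2/M and S phase, were at 204, 259 and 218 CPM, 186, 185 and 296 CPM and 279, 163 and 93.4 CPM, with no comparison level above 0.957 CPM. The D-type cyclins, which respond to growth signals in G1, were well detected in the comparison cells too. Ccnd2 (chr6:127125162-127152193) was at 105, 68.5 and 156 CPM in cycling cells against 188, 167 and 162 CPM in comparison cells, lower in 3 of 3 mice. Its log2 fold change was -1.13 (standard error 0.26). Ccnd1 was at 40.7, 54.8 and 54.5 CPM against 34.9, 37.1 and 38.3 CPM, higher in 3 of 3 mice without overlap. Ccnd3 was at 69.8, 117 and 148 CPM against 62.9, 72.4 and 58.8 CPM. Their log2 fold changes were 0.16 and 0.42. The Ccnd3 value turned to -0.37 without the 3 cells led by another cell type.

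The kinases and their activators had a median of 1.92. Cks2 and Cks1b, small subunits that bind CDK complexes, were at 366, 538 and 374 CPM against 3.19, 3.51 and 2.83 CPM, and at 169, 256 and 265 CPM against 49.6, 54.8 and 39.0 CPM. Cdk4, the partner of the D-type cyclins, was at 128, 148 and 85.6 CPM against 61.9, 69.8 and 54.2 CPM. Among the transcription factors of the cycle, Foxm1 was at 69.8, 43.6 and 46.7 CPM against 0.709, 0.744 and 0.728 CPM, the pocket protein gene Rbl1 at 64.0, 37.3 and 70.1 CPM against 7.96, 5.20 and 8.13 CPM, and Tfdp1, the partner of E2F factors, at 64.0, 78.4 and 93.4 CPM against 24.6, 26.8 and 24.4 CPM.

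The inhibitors of cyclin-dependent kinases fell into separate groups, and are likewise given without a test, since some of them are known to vary with the cycle. Cdkn2c, which encodes p18, was at 145, 128 and 148 CPM against 13.1, 14.6 and 7.24 CPM (log2 fold change 3.23, standard error (SE) 0.28). Cdkn2d, which encodes p19, was at 145, 110 and 125 CPM against 13.2, 16.3 and 9.91 CPM (log2 fold change 2.87, SE 0.28). Both were higher in 3 of 3 mice without overlap, and both are known to be made in S phase and G2/M of cycling cells. Cdkn2a also lay wholly above the comparison levels, with the largest log2 fold change of the 7 inhibitors (5.19). It had only 5 UMIs in 5 of the cycling cells, so the size of its change is imprecise. Cdkn1a, the p53-induced inhibitor p21, was at 320, 268 and 490 CPM against 353, 325 and 438 CPM, Cdkn1b (p27) at 81.4, 28.6 and 31.1 CPM against 67.6, 36.5 and 52.5 CPM, and Cdkn1c (p57) at 40.7, 83.4 and 7.78 CPM against 42.4, 60.8 and 52.1 CPM. For these 3 the levels overlapped and the mice disagreed in direction. Cdkn2b had no UMI in cycling cells, against 0.462, 0.505 and 0.461 CPM.

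Outside the cell cycle lists 1639 genes passed, 687 higher and 952 lower. The 10 largest rises with at least 50 CPM were Iqgap3, Ska1, Depdc1a, Mxd3, Hist1h1b, Neil3, Pclaf, Hist1h2ae, Hist1h2ap and Kntc1. Pclaf was at 355, 270 and 444 CPM against 0.236, 0.226 and 0.236 CPM. The linker histone gene Hist1h1b varied widely between mice, at 541, 64.7 and 1253 CPM, lowest in mouse 2. Mxd3, a member of the MYC network known for expression in S phase, was at 139.6, 93.4 and 148 CPM against 0.0537, 0.0797 and 0.0205 CPM. As these move with the rule genes they are given without a test.

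The 10 largest falls were Inmt, Mgp, Fmo2, Ccn5, Hsd11b1, Cxcl13, Anpep, Crispld2, Cxcl14 and Rarg, all without overlap. They were picked among genes with the same sign in every mouse, so that being lower in 3 of 3 mice follows from the choice. Inmt (chr6:55170626-55175043), a methyltransferase of indoleamines, was at 23.3, 26.1 and 62.3 CPM against 235, 378 and 202 CPM (log2 fold change -3.49, SE 0.33, edgeR adjusted p = 2.57e-24). Cxcl14 (chr13:56288643-56296551), a chemokine made by preadipocytes, was at 40.7, 117 and 132 CPM against 325, 611 and 299 CPM (log2 fold change -2.48, SE 0.29, edgeR adjusted p = 3.07e-16). Cxcl13, the B cell chemokine, was at 34.9, 84.6 and 62.3 CPM against 221, 412 and 292 CPM, a log2 fold change of -2.66. Hsd11b1, which regenerates active glucocorticoid, was at 5.82, 31.1 and 23.4 CPM against 82.3, 161 and 76.0 CPM, a log2 fold change of -2.69. Mgp, an inhibitor of calcification, rested on few molecules, with 7, 3 and 0 UMIs in cycling cells, and its value of -3.38 is imprecise. Fmo2 had 10 UMIs in the cycling cells, Ccn5 and Crispld2 14 each and Rarg 15, so their values and ranks are imprecise too. Rarg, a retinoic acid receptor, was at 11.6, 13.7 and 15.6 CPM against 70.98, 56.01 and 62.8 CPM. With total UMIs alone, or without cells above the 95th percentile of UMIs, each of these 10 genes still passed.

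**Figure D4:**
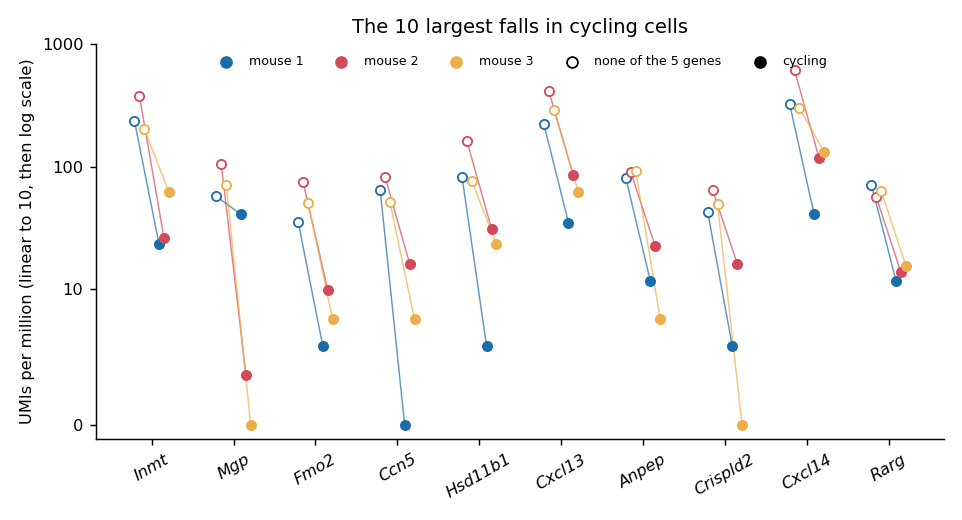
Level of the 10 genes with the largest falls in cycling cells (filled) and in cells with none of the 5 genes (open), in CPM, with the sums of the same mouse joined by lines and a scale that is linear up to 10 and logarithmic above. In every gene and mouse the cycling level is the lower, which follows from choosing genes with the same sign in every mouse. Inmt, for example, is at 23.3, 26.1 and 62.3 against 235, 378 and 202.

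The counts of called genes in the lists that follow stand against 6.37% higher and 6.98% lower of all genes tested, and with total UMIs alone against 1321 and 431 of 13659. Of 12 progenitor identity genes 10 passed and all 10 were lower in cycling cells, with a median log2 fold change of -0.94 against -0.21 for all genes. With total UMIs alone 6 of 12 were lower and none higher. Pi16 (chr17:29317680-29330593), a secreted peptidase inhibitor, was at 1349, 902 and 467 CPM against 2068, 2520 and 2380 CPM (log2 fold change -1.80, SE 0.27, edgeR adjusted p = 1.3e-09). Anxa3, an annexin, was at 779, 463 and 350 CPM against 934, 863 and 1094 CPM, and fell by 1.25 on the log2 scale. Ly6c1 was at 686, 997 and 327 CPM against 922, 1241 and 909 CPM (log2 fold change -1.04), and Ly6a, which encodes SCA1, at 1541, 2814 and 1456 CPM against 2522, 3276 and 2482 CPM (-0.91). For Ly6a and Ly6c1 the groups overlapped, and both belong to a family of similar genes. Dpp4 and Pi16 also define the class of a cell, and neither was used to choose the cycling cells.

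Preadipocyte genes went both ways, with 3 of 14 higher and 6 lower and a median of -0.43, and with 3 higher and 2 lower with total UMIs alone. Besides Cxcl14, the basement membrane collagen genes Col4a1 and Col4a2 and the lipase gene Lpl were lower, with log2 fold changes of -0.92, -0.75 and -0.86, though none of these 3 passed with total UMIs alone or without mouse 2. Lpl was at 710, 510 and 1510 CPM against 1304, 1243 and 947 CPM, higher in mouse 3 and lower in the other two. The higher genes, named after their values were seen, were Cd36, a fatty acid transporter, Sdc1, a cell surface proteoglycan, and Dlk1, an imprinted inhibitor of adipogenesis. Cd36 was at 0, 108 and 148 CPM against 66.2, 28.2 and 25.2 CPM, lower in mouse 1 and higher in the other two. Sdc1 went the same ways, at 5.82, 26.1 and 38.9 CPM against 18.04, 6.29 and 5.69 CPM. The 32 Dlk1 UMIs came from 3 cells of mouse 2, and 28 of them from 1 cell. Among 10 markers of the adipogenesis-regulatory population (Areg), 4 were lower and none higher: Aspn (-1.24), Cygb (-1.75), Mgp and Fmo2.

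Of 19 adipogenic transcription factors tested, 4 were lower (6.98% of all genes were) and none higher, with a median of -0.64, and with total UMIs alone 2 were lower. Klf4 was at 1756, 1271 and 1518 CPM against 2954, 2767 and 3037 CPM, without overlap (log2 fold change -1.31, SE 0.26, edgeR adjusted p = 1.71e-05). Cebpb, an early driver of adipogenesis, was at 343, 700 and 669 CPM against 959, 1453 and 1400 CPM (log2 fold change -1.54, SE 0.26, edgeR adjusted p = 1.3e-07). Cebpd (-0.92) and Ebf2 (-0.88) were the others, and neither passed with total UMIs alone.

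In the pan-fibroblast list 5 of 10 were lower and none higher (median -0.75), with 3 lower without the 3 cells led by another cell type and 2 with total UMIs alone, and in the matrix list 9 of 20 were lower and none higher (median -0.73). Dcn, the proteoglycan decorin, was at 6938, 6015 and 7395 CPM against 11364, 14627 and 11687 CPM (log2 fold change -1.24, SE 0.28, edgeR adjusted p = 0.000268), and Serpinf1, an inhibitor of vessel growth, at 808, 951 and 1020 CPM against 1474, 2020 and 1539 CPM, likewise without overlap. Col1a2 and Lum (-0.76 and -0.79) did not pass without the 3 cells led by another cell type, nor with total UMIs alone. Fn1, fibronectin, was at 3530, 1638 and 2148 CPM against 3666, 3241 and 4403 CPM (-1.04). In the matrix list, 5 genes were lower without those 3 cells and 2 with total UMIs alone.

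Of 17 genes linked to the resting state 8 were lower (6.98% of all genes were), 9 did not pass and none was higher, with a median of -0.83. Among the most abundant of these, Klf9 was at 395, 241 and 342 CPM against 574, 549 and 517 CPM (log2 fold change -1.14, SE 0.25, edgeR adjusted p = 0.000136). Txnip, which restrains thioredoxin and glucose uptake, was at 262, 148 and 272 CPM against 446, 457 and 330 CPM (log2 fold change -1.28, SE 0.26, edgeR adjusted p = 1.62e-05). Btg1 (-0.91) and Gas1 (-1.04), both known to slow growth, completed the group, and Btg1 did not pass with total UMIs alone. With that scaling 5 of the 17 were lower, against 431 of 13659 for all genes. Mxd4, the MYC antagonist, fell by 1.31, and Myc itself was at 192, 235 and 132 CPM against 264, 258 and 277 CPM (-0.82), which did not pass with total UMIs alone.

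Growth factors and receptors followed, with 8 of 18 lower and none higher (median -0.90), and 5 lower with total UMIs alone. Igfbp6, a binder of IGF-II, was at 2309, 1210 and 1012 CPM against 3200, 3060 and 2801 CPM (-1.44), and Fgfr1 at 302, 316 and 366 CPM against 462, 470 and 631 CPM (-0.99). Egfr was at 535, 177 and 490 CPM against 768, 421 and 493 CPM (-0.96), with overlap, as was Igfbp5 (-0.93), which did not pass with total UMIs alone. Of 24 genes of the response to dissociation, 7 were lower, among them Jund (-1.03), Fosb (-0.93) and Hspa1a (-0.87), and the median was -0.58, where 6.98% of all genes were lower. With total UMIs alone 3 of the 24 were lower, against 431 of 13659 for all genes, and Fosb and Hspa1a did not pass. Of 16 p53 targets only Gadd45a passed (-1.14), on 4, 29 and 2 UMIs, and not with total UMIs alone, and 1 of 16 is near the 6.98% of all genes that were lower.

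Ribosome biogenesis genes, in contrast, had a median of 0.23, and 0 of 20 passed in either direction with edgeR, 1 had an unadjusted p under 0.05 and 0 passed with DESeq2, while 4 were higher and none lower with total UMIs alone. In the glycolysis list 1 of 15 was higher and 2 were lower, near the shares of all genes (6.37% and 6.98%). With RLE 3 were higher and 2 lower, and with total UMIs alone 4 and 1. Pgk1, an ATP-producing enzyme of glycolysis, was at 157, 147 and 109 CPM against 63.9, 68.6 and 54.8 CPM (0.81), and Aldoa at 98.9, 241 and 93.4 CPM against 259, 350 and 221 CPM (-1.29). Among 12 imprinted growth genes 2 were higher (H19 and Dlk1, the latter from few cells as given above) and 1 was lower (Meg3), where 6.37% and 6.98% of all genes were. The noncoding RNA Meg3 (chr12:109541001-109571726) was at 686, 719 and 436 CPM against 1295, 1257 and 1397 CPM (log2 fold change -1.46, SE 0.26, edgeR adjusted p = 7.19e-07). H19 (chr7:142575529-142578143) was at 81.4, 63.5 and 132 CPM against 15.8, 7.30 and 8.14 CPM (log2 fold change 2.82, SE 0.31, edgeR adjusted p = 8.12e-18), with 82 UMIs in 10 of the 56 cells.

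**Figure D5:**
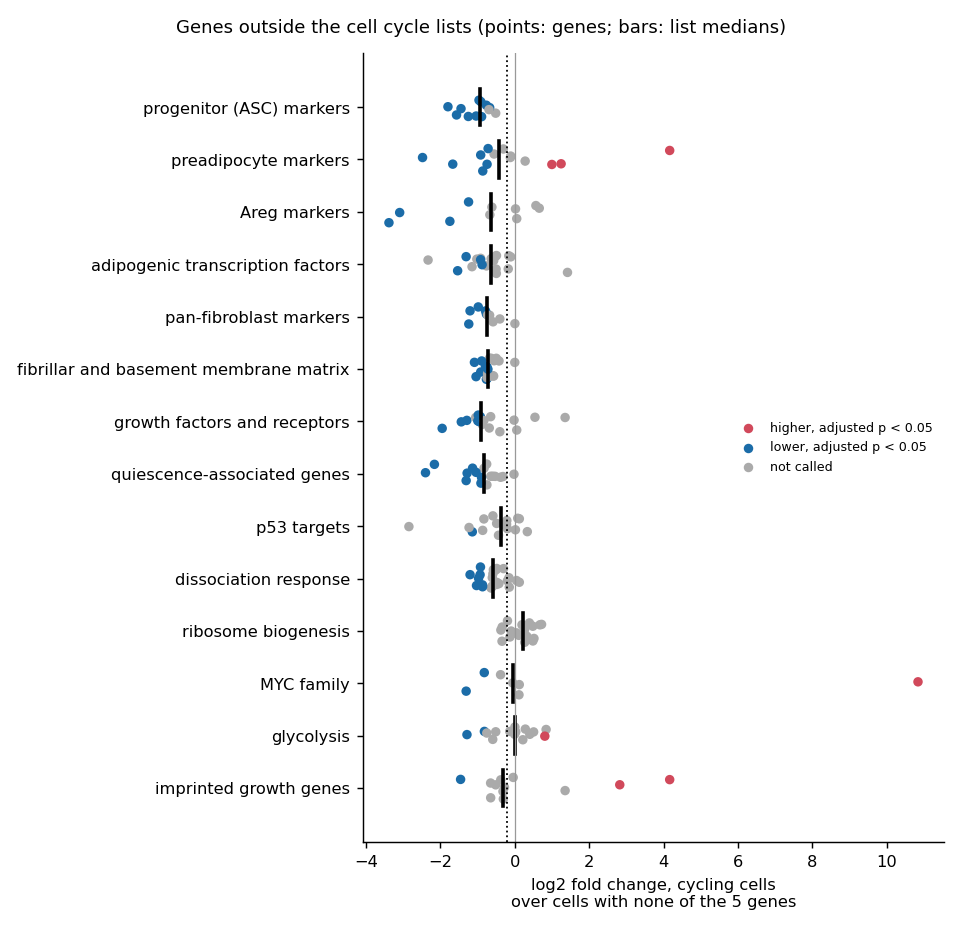
Log2 fold change of each tested gene outside the cell cycle lists, cycling cells over cells with none of the 5 genes, by list, with list medians as bars, the median of all tested genes (-0.21) as a dotted line and colours for genes past an adjusted p of 0.05. The medians run from -0.94 for progenitor markers to 0.23 for ribosome biogenesis, and the point above 10 is Mxd3.

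Cycling cells of the preadipocyte class only (1, 6 and 1 cells in mice 1, 2 and 3) were compared with those of the progenitor class only (11, 18 and 4 cells). The classes are set by marker UMIs of the same cells, and cells in both classes or neither were left out. The comparison therefore cannot show whether cycling cells keep the identity of their class, and other markers of a class are likely to follow its choice. In mice 1 and 3 the preadipocyte sum is a single cell, so these values are those of few cells. Of 11911 genes tested without the 9 genes that define the cells and classes, 337 passed (2.83%), with 133 higher (1.12%) and 204 lower (1.71%) in preadipocytes. The split depended on the scaling, with 153 higher and 161 lower with RLE, and turned to 163 higher and 115 lower with total UMIs alone. Without the members led by another cell type 55 were higher and 148 lower, and without mouse 2 the numbers were 18 and 128. Of 11 other preadipocyte markers 9 were higher and none lower (median log2 fold change 2.57), and of 10 other progenitor markers 7 were lower and none higher (median -2.42). The median of all genes was -0.27. Without the members led by another cell type, 8 of the preadipocyte and 5 of the progenitor markers passed. In the same comparison 5 of 6 endothelial and 2 of 8 mural markers were higher in preadipocytes, and 0 of either without those members.

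The preadipocyte collagen gene Col15a1 was at 1080, 498 and 1043 CPM in the cycling preadipocytes and at 74.7, 62.7 and 96.6 CPM in the cycling progenitors. In the comparison cells the same classes stood at 1023, 846 and 1115 CPM and at 53.4, 26.5 and 39.2 CPM. Other preadipocyte genes did not all match in this way. Cxcl14 was at 0, 190 and 196 CPM in cycling preadipocytes against 732, 1404 and 1063 CPM in the preadipocytes of the comparison cells. Cd36 was lower in mouse 1 and higher in mice 2 and 3, at 0, 341 and 652 CPM against 248, 99.9 and 134 CPM. Sparcl1 (chr5:104079111-104113733), a secreted matrix protein, was at 1080, 845 and 1109 CPM against 29.9, 12.1 and 48.3 CPM (log2 fold change 5.26, SE 0.52, edgeR adjusted p = 1.55e-09), and Enpp2, the enzyme autotaxin, at 720, 315 and 522 CPM against 29.9, 9.65 and 0 CPM (4.46). Among genes with the same sign in every mouse, Tmem176b, Epor and Zfp26 were the other largest rises by fitted value. Epor rested on 1, 3 and 1 UMIs against 0 and Zfp26 on 2, 4 and 1 UMIs against 0, 1 and 0. The size and rank of both are thus not given. Outside that condition Cd36 (5.32) lay above Sparcl1, with no UMI in the preadipocyte sum of mouse 1. Of the largest falls, Smpd3, Sult1e1, Sbsn, C7 and Cxcl2 had no UMI in the cycling preadipocytes. In the cycling progenitors Smpd3, a sphingomyelinase, had 26, 128 and 8 UMIs, Sbsn 65, 68 and 6, and Sult1e1, which inactivates estrogen, 61, 64 and 5. The complement gene C7 had 41, 18 and 31 UMIs there and the chemokine gene Cxcl2 8, 52 and 13. No fold is given for these 5, since they had no UMI in the preadipocyte sums. The values of Sparcl1 and Enpp2 rest on the same sums, which are 1 cell each in mice 1 and 3. In mouse 2 the cell led by endothelial markers held 27742 of the 152594 UMIs of the preadipocyte sum. For comparison, 6608 of the 11911 genes (55.5%) passed between the same classes in comparison cells, with 34.4% higher and 21.1% lower in preadipocytes. This split also turned, from 4093 higher and 2515 lower to 3148 and 3303 with RLE, to 2234 and 3332 without mouse 2 and to 2254 and 2545 without mouse 3. The difference between classes in the effect of cycling itself, tested as an interaction in edgeR, passed for 84 genes (0.705%), with 16 (0.134%) of them higher and 68 (0.571%) lower in preadipocytes, on the same few cells. With RLE 22 were higher and 30 lower, and with total UMIs alone 20 and 18, so that the direction depended on the scaling. Without the members led by another cell type 2 were higher and 40 lower, and without mouse 2 the numbers were 1 and 32.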

How the data were processed

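Single cells of 3 libraries (10x 3′ v2 chemistry, 1 per mouse) were analysed. The values deposited by the authors are raw UMI counts per gene and barcode, not normalized. The submitters' notes name Cell Ranger 2.1.1 and build mm10, the matrix headers name Cell Ranger 4.0.0, and the study's methods name another release of it. Which one made the counts was not settled. mm10 corresponds to GRCm38, and 32158 of 32285 gene identifiers were found in its GENCODE annotation.

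Counts were summed per mouse over cycling and comparison cells and tested with edgeR 4.0.16 in R 4.3.3 (filterByExpr, TMM, quasi-likelihood test, mouse as a block, Benjamini-Hochberg adjustment over all genes tested, threshold 0.05), with DESeq2 1.42.0 as an alternative. The sums of one mouse come from the same animal, which is the pairing. CPM are relative to the total UMIs of a sum. Standard errors were derived from the log2 fold change and the F statistic. The fit of cycling against comparison sums was also run on simulated sums, with known changes and with none. The fits between classes, with sums of single cells, were not simulated. Per-mouse rates were compared with an exact sign-flip test in scipy 1.17.1. No doublet caller was run. Instead, fits were repeated without the cells above the 95th percentile of UMIs and without cells in both classes.

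The members, gene lists and tests were chosen with earlier results of these data known. Named genes are the 5 rule genes, the 3 most abundant of each cell cycle list, all CDK inhibitors and D-type cyclins, the 10 largest rises and 10 largest falls outside those lists (same sign in every mouse, at least 50 CPM), the 5 largest each way between cycling classes, and the most abundant called genes of the other lists. The 5 each way between cycling classes also had the same sign in every mouse. Strandedness and the handling of multimapping reads were not examined.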

Additional observations from a re-analysis of the deposited data

Results flagged for a closer look

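The effect of cycling differed between preadipocytes and progenitors in 84 of 11911 genes (0.705%; interaction term in edgeR at an adjusted p of 0.05), 16 of them with the higher effect in preadipocytes and 68 with the lower. The number was 42 (2 higher and 40 lower) without the cell led by endothelial markers and the 2 led by erythroid markers, 33 (1 and 32) without mouse 2, 52 with RLE (22 higher and 30 lower), 38 with scaling by total UMIs alone (20 higher and 18 lower) and 4 without the mouse as a block, and the preadipocyte sums of mice 1 and 3 are 1 cell each.

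Among the 2213 barcodes removed by the filters on genes and mitochondrial UMIs, 3 carried at least 2 of the 5 rule genes (0.136%), 1 in mouse 1, 0 in mouse 2 and 2 in mouse 3. All 3 had at least 5% mitochondrial UMIs, and 2 of them were kept when the limit was set at 10%, which gave 58 cycling cells in place of 56.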

How the results depend on the processing

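The 1823 genes that differed between cycling and comparison cells became 1153 with DESeq2, 758 without cells above the 95th percentile of UMIs, 712 at 3000 UMIs per cell, 360 of 11081 in the preadipocyte class alone and, as an alternative chosen after seeing the data, 682 of 2804 when the comparison sums were thinned to the totals of the cycling cells. Leaving out 1 mouse gave 736 to 1398, the lowest without mouse 2. The 337 genes between cycling classes became 56 at 3000 UMIs, 203 without the members led by another cell type and 119 without the mouse as a block, and leaving out 1 mouse gave 146 to 349. The 84 genes of the difference between classes became 52 with RLE, 38 with total UMIs alone, 4 without the block, 17 at 3000 UMIs and 42 without those members, and leaving out 1 mouse gave 33 to 120. Between resting classes 6608 became 3451 with DESeq2 and 3031 without the block. The mean log2 ratio of rates turned from 0.11 to -0.49 without cells above the 95th percentile and to -0.49 for cells in 1 class, and ranged from -0.46 to 0.65 over left-out mice. Dlk1 ranged from -7.49 (without mouse 2) to 4.61 over left-out mice and went to -8.09 without cells above the 95th percentile, where it had no UMI in cycling cells. The cause was not tested in any of these. Without the block 1246 genes passed between cycling and comparison cells, 756 higher and 490 lower. Without cells above the 95th percentile the classes could not be compared, since a mouse had no cell in a sum. The 11 cycling cells of mouse 3 and the 15 of mouse 1 limit every value.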
